A study of Mus musculus with 16 samples.

Results

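The replication-dependent histone genes of the mouse were followed through 12 peak lists from ChIP-seq of CD8+ T cells grown in culture. Members were the mm10 RefSeq genes on chromosomes 3, 6, 11 and 13 whose symbol or synonym starts with Hist1h, Hist2h, Hist3h or Hist4h. There were 70 such genes, of which 67 were protein coding and 3 were pseudogenes, among 26180 genes with a curated RefSeq transcript. The 67 coding genes comprised 6 linker histone H1, 18 H2A, 18 H2B, 12 H3 and 13 H4 genes. All counts below are over these 67 unless a pseudogene is named.

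The cells came from the spleens of OT1 mice, a strain with a transgenic T cell receptor that recognises ovalbumin. They were activated with anti-CD3 and anti-CD28 for 48 h and then grown with IL-2 for 3 days, so the chromatin was that of cells that had been driven to divide in culture. The inhibitor group (GSK) received 0.5 μM GSK2879552, which irreversibly blocks the histone demethylase LSD1, throughout both periods, and the control group (Veh) received vehicle. In each group 6 antibodies were used, against RNA polymerase II (Pol II), LSD1, the acetyl mark H3K27ac and the methyl marks H3K4me1, H3K4me2 and H3K4me3, with 1 library for each antibody and treatment. With no replicate library, no difference could be set against a replicate spread, no test was made and no p-value is given for any difference. Peak numbers ran from 2751 (GSK H3K27ac) to 40272 (GSK H3K4me1), and the lists hold no read numbers. Read totals that the study gives for its libraries entered no value here, and only their direction is named for some antibodies. All 8 T cell genes examined (Cd3d, Cd3e, Cd3g, Cd8a, Cd8b1, Cd2, Cd5 and Lck) had an H3K4me3 peak in both treatments, against 1 of 11 marker genes of other cells (Cd14), and none of those 11 had a Pol II or H3K27ac peak.

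Replication-dependent histone genes supply the core and linker histones that package newly copied DNA. They are short genes without introns, they lie in clusters, they are transcribed mainly in S phase, and their mRNAs end in a conserved stem-loop in place of a poly(A) tail. LSD1 removes methyl groups from mono- and dimethylated H3K4, H3K4me3 and H3K27ac mark active promoters, and Pol II transcribes these genes.

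With neighbours within 100 kb joined, chromosome 13 held clusters of 19, 5 and 29 genes and the pair H2bc1 and H2ac1, chromosome 3 held a cluster of 10 and chromosome 11 a cluster of 3, pseudogenes included. H4f16 on chromosome 6 and the pseudogene H2af-ps2 stood alone. Their median length was 492 bp, and 61 of 67 were shorter than 1 kb. Many lie head to head, so that 47 members had a TSS window (1 kb on either side) overlapping that of another member. The 69 TSSs of the members made 40 groups of overlapping windows, of at most 3 members, and genes of a group often took their values from the same peak.

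The upstream sequences differed by family, and they are shown for the member with the highest mean Pol II fold of each family, for H4c3, the member with the highest LSD1 fold, and for the testis linker histone gene H1f6, which had no peak in any list. Each run is the 150 bases before the annotated start in GRCm38, taken from RefSeq and written in the direction of transcription. Capitals mark the TATA box with the letters TATAAA, the CCAAT box (read as ATTGG when it lies on the opposite strand), the octamer with the letters ATTTGCAT, the box of H1 genes with the letters AAACACA, and the core of site II of H4 genes with the letters GGTCCG.
H1f4 (Hist1h1e, chr13:23622559-23622708, minus strand): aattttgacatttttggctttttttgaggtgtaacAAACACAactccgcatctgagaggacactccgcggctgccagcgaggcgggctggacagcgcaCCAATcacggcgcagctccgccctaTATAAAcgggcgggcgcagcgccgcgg
H2ac18 (Hist2h2aa1, chr3:96245347-96245496, plus strand): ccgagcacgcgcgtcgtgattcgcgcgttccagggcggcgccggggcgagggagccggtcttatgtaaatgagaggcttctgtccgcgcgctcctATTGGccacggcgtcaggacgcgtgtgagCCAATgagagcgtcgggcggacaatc
H2bc18 (Hist2h2bb, chr3:96269550-96269699, plus strand): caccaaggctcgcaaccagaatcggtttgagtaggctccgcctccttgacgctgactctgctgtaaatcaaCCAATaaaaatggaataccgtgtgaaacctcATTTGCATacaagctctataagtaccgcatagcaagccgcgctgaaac
H3c6 (Hist1h3e, chr13:23562386-23562535, minus strand): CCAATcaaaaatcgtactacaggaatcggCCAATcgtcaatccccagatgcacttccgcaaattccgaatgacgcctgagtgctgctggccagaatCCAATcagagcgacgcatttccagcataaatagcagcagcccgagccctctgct
H4c17 (Hist1h4m, chr13:21811596-21811745, plus strand): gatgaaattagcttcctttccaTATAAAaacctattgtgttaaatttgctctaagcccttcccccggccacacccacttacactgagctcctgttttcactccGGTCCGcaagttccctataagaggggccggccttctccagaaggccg
H4c3 (Hist1h4c, chr13:23698459-23698608, minus strand): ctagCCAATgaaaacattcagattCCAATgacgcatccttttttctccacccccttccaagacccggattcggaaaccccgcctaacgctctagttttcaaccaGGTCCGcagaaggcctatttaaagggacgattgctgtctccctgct
H1f6 (Hist1h1t, chr13:23695661-23695810, plus strand): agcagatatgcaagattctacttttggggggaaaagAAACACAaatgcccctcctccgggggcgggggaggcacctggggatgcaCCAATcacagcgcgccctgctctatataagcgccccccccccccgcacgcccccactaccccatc

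Promoter sequence, from 250 bases before to 50 after the start, was at hand for 62 of the 67 members (not for H3c7, H2bc4, H3c1, H2bc21 and H4c14). Both strands were searched, and none of these motifs holds another of them. CCAAT stood in 50 of the 50 H1, H2A, H2B and H3 promoters and in 3 of 12 H4 promoters, against 37.4% of all 32851 RefSeq promoters. GGTCCG showed the opposite pattern, with 11 of 12 H4 promoters, 1 H2B promoter and 1 H3 promoter, against 8.25% of all promoters. The octamer ATTTGCAT, the letters bound by octamer factors, was found in 7 of 18 H2A and 6 of 16 H2B promoters and in no other family, against 1.74% of all promoters. AAACACA was in 5 of 6 H1, 2 of 18 H2A and 2 of 16 H2B promoters and in no H3 or H4 promoter, against 7.18% of all promoters. TATAAA was in 35 of 62 members (56.5%), against 13.6%. The searched sequences of head-to-head genes can overlap, so 1 site may be counted for both genes of a pair. A match is a description of the letters only.

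The histone stem-loop was found within 100 bases of the annotated end in 64 of 67 members (all but H2ac22, H3c6 and H2bc21), and in 2 of 5461 other genes on the same chromosomes. Its stem parted the H4 genes from the others. All 51 stem-loops of H1, H2A, H2B and H3 genes begin with the bases GGCTC, while 11 of the 13 in H4 genes begin with GGCCC and the other two with GGTCC. The commonest form, a 16-base run in 41 members, is shown for H1f4 and the form of H4c3, an H4 form, beside it, with the stem-loop in capitals and 5 bases on either side.
H1f4 3′ end (chr13:23621782-23621797 for the capitals, minus strand): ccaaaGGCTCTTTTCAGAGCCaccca
H4c3 3′ end (chr13:23698089-23698104 for the capitals, minus strand): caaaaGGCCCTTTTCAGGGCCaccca

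Pol II and H3K4me3 were found at most histone genes, and H3K4me1 and H3K4me2 at few. A Pol II peak lay within 1 kb of the start of 58 of 67 members in Veh (86.6%, Wilson 95% interval 76.4 to 92.8) and of 58 of 67 in GSK (86.6%), beside 29.3% and 24.9% of all genes. H3K4me3 was at 54 members in Veh (80.6%) and 58 in GSK (86.6%), beside 50.0% and 51.1% of all genes. LSD1 was at 49 (73.1%, 61.5 to 82.3) and 52 (77.6%, 66.3 to 85.9), beside 36.3% and 41.6%. H3K27ac was at 43 (64.2%) and 28 (41.8%), beside 20.5% and 8.58%. H3K4me2 went the other way, with 20 members in Veh (29.9%) and 5 in GSK (7.46%), beside 39.0% and 28.2% of all genes. H3K4me1 was at 9 (13.4%) and 13 (19.4%), beside 30.3% and 36.8%. Neighbouring members share windows and the intervals cover counting error only. Counted by the 40 groups of windows, Pol II was at 38 in Veh and 38 in GSK, LSD1 at 35 and 36, H3K4me3 at 34 and 36, H3K27ac at 29 and 19, H3K4me2 at 14 and 4, and H3K4me1 at 8 and 13.

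**Figure D1:**
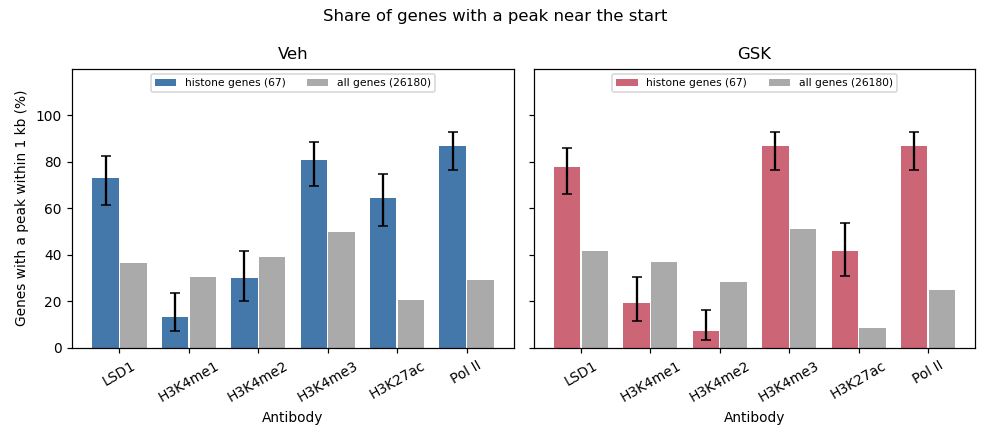
Percentage of genes with a peak within 1 kb of a transcription start site, by antibody, in Veh (left) and GSK (right). Coloured bars are the 67 histone genes with Wilson 95% intervals, grey bars all 26180 genes. The histone bar stands above the grey bar for LSD1, H3K4me3, H3K27ac and Pol II, and below it for H3K4me1 and H3K4me2, in both treatments.

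The contrast between marks was also there among genes with Pol II. Of the 58 members with a Veh Pol II peak, 34.5% had an H3K4me2 peak and 12.1% an H3K4me1 peak, whereas among all genes with a Veh Pol II peak these were 66.1% and 39.7%. In GSK they were 8.62% and 22.4% of members, beside 41.2% and 50.2%. H3K27ac was at 70.7% of the members with Pol II in Veh and 44.8% in GSK, beside 61.2% and 30.1%. LSD1 was at 84.5% and 86.2%, beside 72.9% and 83.3%, and H3K4me3 at 89.7% and 96.6%, beside 98.2% and 98.2%.

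**Figure D2:**
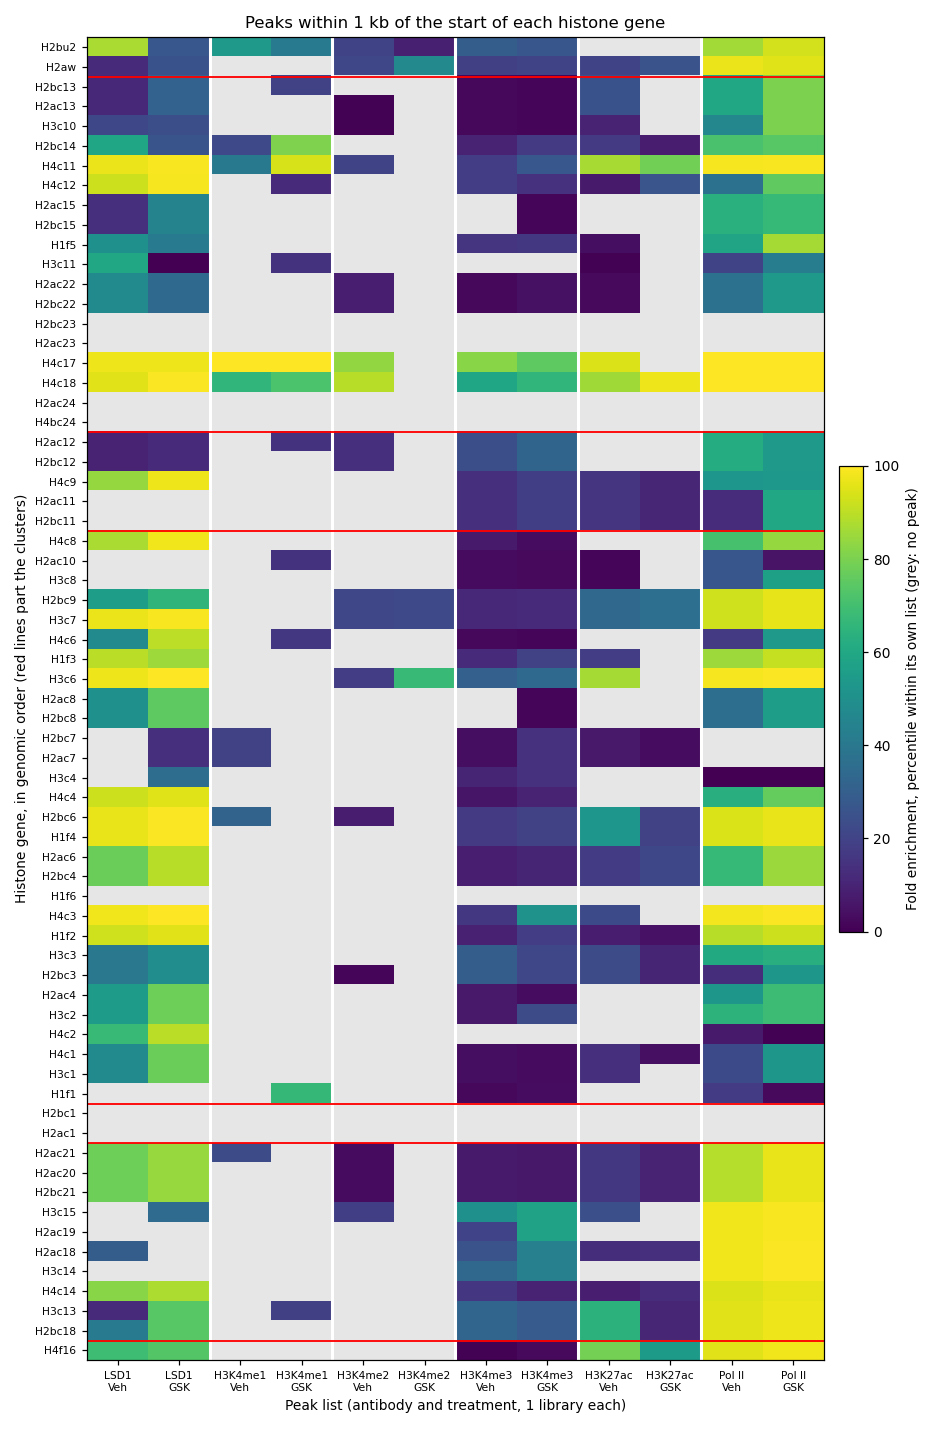
Each row is 1 of the 67 histone genes in genomic order within the chromosome 11, 13, 3 and 6 clusters, parted by red lines, and each column is 1 of the 12 peak lists. Colour gives the percentile of the fold enrichment of the gene's highest peak within its own list, and grey means no peak within 1 kb. The Pol II columns are filled for 58 members in both treatments, the H3K4me2 column thins from 20 members in Veh to 5 in GSK, and the LSD1 columns are filled at all 13 H4 genes (at H4c1 by the peaks inside H3c1).

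Presence of a peak and its height diverged for H3K4me3. Height is given as fold enrichment, the pileup of ChIP reads at a peak over that of the local background, and as the percentile of that fold within the gene's own list, because lists of different depth cannot be set against each other directly. The median H3K4me3 fold of the members was 3.90 in Veh and 4.08 in GSK, against 5.99 and 6.10 over all genes with a peak. This put the members at a median percentile of 11.1 and 14.1, against 55.8 and 56.7 over all genes with a peak. In Veh 43 of the 54 members with a peak lay under the 25th percentile (79.6%, beside 18.4% of all genes), and none lay over the 90th. The median −log10 p was 14.3 and 18.7, against 77.1 and 77.0 over all genes, while the peaks were of similar width (median 1420 and 1470 bp, against 1250 and 1230 bp). The T cell genes also had a low fold percentile (median 4.21 and 3.41), but their median −log10 p was 64.5 and 59.6. H3K27ac also ranked low in fold, with a median percentile of 17 in Veh and 10.9 in GSK, against 61.1 and 59.2. Its median −log10 p at the members was above that over all genes in Veh, and was 9.06 against 9.12 in GSK. Its peaks there were wider, with a median of 991 bp in Veh and 579 bp in GSK, against 541 and 396 bp.

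The H3K4me3 peaks also lay differently about the start. Taking the peak with the longest overlap, the start itself was inside an H3K4me3 peak at 20 of 54 members in Veh (37.0%) and 30 of 58 in GSK (51.7%), against 84.5% and 86.1% of all genes with a peak. The peak lay wholly downstream of the start at 24 members in Veh (44.4%, against 12.3%) and at 21 in GSK (36.2%, against 10.9%).

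**Figure D3:**
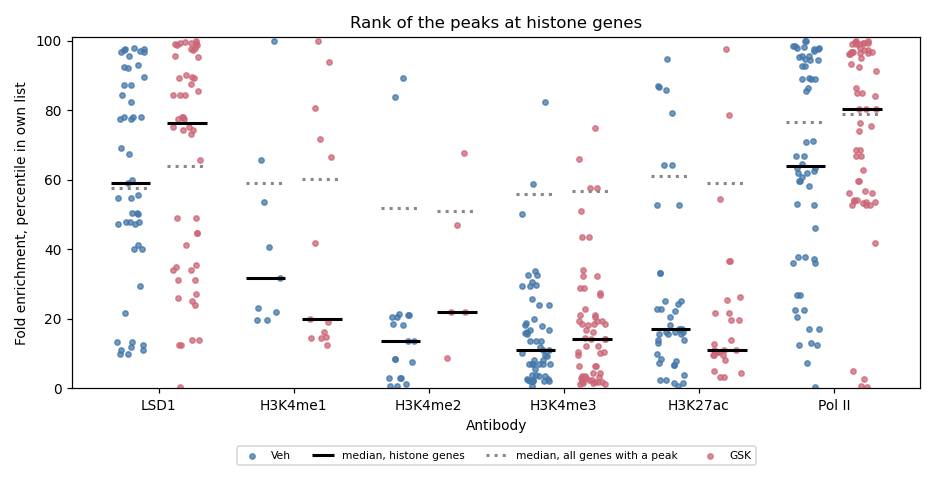
Percentile of the fold enrichment of each histone gene's highest peak within its own list (vertical axis), by antibody and treatment, 1 point per gene with a peak. Black bars are the medians of the histone genes and dotted grey bars the medians of all genes with a peak. The H3K4me3 points lie mostly under 25, with medians of 11.1 in Veh and 14.1 in GSK, while the LSD1 and Pol II points run over the whole range.

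Pol II covered whole histone genes. Its peaks there had a median width of 977 bp in Veh and 1070 bp in GSK, against 375 and 368 bp over all genes with a peak, and a median −log10 p of 43.1 and 40.4, against 10.5 and 9.02. Their fold was not as far from that of other genes, with a median percentile of 63.9 and 80.3 against 76.5 and 79.0. The median member had 100% of its transcribed span under Pol II peaks, and of the 57 members with Pol II and a single start, 34 in Veh and 36 in GSK were fully covered. Short genes elsewhere did not look like this. Among genes under 1 kb, 54 of 61 histone genes had a Pol II peak in each treatment and 63% and 66.7% of these were fully covered. Of 1382 other protein-coding genes under 1 kb, 45 in Veh and 38 in GSK had a Pol II peak, and none was fully covered, with a median of 21.1% and 26.3% of the span under a peak.

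In the H1 family, which encodes the linker histones, 5 of 6 genes had Pol II in both treatments. H1f4 (Hist1h1e, chr13:23621777-23622558) had the highest mean H3K4me3 fold of the family, with a fold of 4.19 in Veh and 4.36 in GSK. Its LSD1 fold was 8.44 and 11, its Pol II fold 7.96 and 7.24 and its H3K27ac fold 3.94 and 4.32, and it had no H3K4me1 or H3K4me2 peak. H1f1 (Hist1h1a) was the lowest of the H1 genes for H3K4me3, at 2.90 and 3.10, with Pol II at 3.23 and 2.70 and no LSD1 peak. No H1 gene had an H3K4me2 peak in either treatment.

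The H2A and H2B families encode the dimer of the nucleosome core, and many of their genes are head-to-head pairs that share a peak. Their LSD1 folds were moderate, with medians of 4.13 in Veh and 4.32 in GSK for H2A and 4.21 and 4.38 for H2B. H2ac13 and H2bc13, such a pair, had the lowest mean H3K4me3 fold of each family among genes with a peak in both treatments, at 2.89 and 2.75. H2ac19 (Hist2h2aa2) had the highest mean H3K4me3 fold of the H2A genes, with 4.34 in Veh and 6.16 in GSK. Both peaks lay past the 3′ end of the gene, at chr3:96239519-96239752 in Veh, and the GSK peak was also the one scored for its neighbour H3c15. H2bc18 (Hist2h2bb) had the highest mean of the H2B genes, with 4.92 and 4.77. H2ac18 (Hist2h2aa1, chr3:96245497-96246052) had the highest Pol II fold of the H2A genes, 10.3 and 11.9, but that peak lay past the 3′ end of the gene, at chr3:96246055-96246331 in Veh. H2bc6 (Hist1h2be) has curated starts at 2 places. At chr13:23585970 its LSD1 fold was 3.83 and 3.97 and its Pol II fold 4.97 and 5.43. The windows of its other starts overlap that of H1f4. There it took the same LSD1, Pol II, H3K4me3 and H3K27ac peaks as H1f4, which is why its plotted LSD1 fold equals that of H1f4. In Veh these starts also had H3K4me1 (3.53) and H3K4me2 (3.49) peaks, which H1f4 did not have.

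The H3 genes, which encode the histone that carries the H3K4 and H3K27 marks, all had Pol II in both treatments, 12 of 12, with folds from 2.35 to 11.4 in Veh. H3c6 (Hist1h3e, chr13:23561475-23562385) was the highest H3 gene for LSD1 (9.14 and 12.8), and in Veh also for Pol II (11.4 and 11.8). Its H3K4me3 fold was 4.83 and 5.01 and its H3K4me2 fold 3.90 and 5.39, and H3K27ac was found in Veh only, at 4.88. H3c15 (Hist2h3c2) was the highest H3 gene for H3K4me3, at 5.72 and 6.16 in peaks that did not overlap each other, and H3c10 (Hist1h3h) the lowest, at 2.89 and 2.75. H3c11 (Hist1h3i) had no H3K4me3 peak in either treatment although Pol II (3.29 and 3.38) and LSD1 (4.54 and 2.63) were present.

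LSD1 was found throughout the H4 family, with high folds. All 13 H4 genes had an LSD1 peak in both treatments, beside 36 of the other 54 members in Veh (66.7%) and 39 in GSK (72.2%). The median LSD1 fold of the H4 genes was 6.10 in Veh and 8.71 in GSK, against 4.21 and 4.43 for the other members with a peak, and their median percentile was 87.2 and 97.3, against 50.3 and 48.9. Among those others, the 4 H1 genes with an LSD1 peak also had high folds, with a median of 6.73 in Veh, above that of H4, and 7.10 in GSK. Folds over the 90th percentile of the list were found at 6 H4 genes in Veh and 9 in GSK, and at 5 and 5 of the others. Among those others H1f4 and H2bc6 took the same peak. Of all genes with an LSD1 peak, 10.3% in Veh and 14.3% in GSK lay over the 90th percentile. Pol II did not part the families in this way, with a median fold of 4.88 and 4.83 at H4 genes and 4.46 and 4.53 at the others. When each LSD1 peak was given once, to the member nearest its summit, the 12 peaks of Veh nearest an H4 gene had a median fold of 6.51 and the other 30 a median of 4.12, and in GSK the 13 and 33 peaks had medians of 8.71 and 4.01. Without H4c17 and H4c18, which have few unique positions, the other 11 H4 genes had a median LSD1 fold of 5.81 in Veh and 7.82 in GSK.

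H4c3 (Hist1h4c, chr13:23698084-23698458) had the highest LSD1 fold of all members, 9.5 in Veh and 13.8 in GSK. The peak was 547 bp wide in Veh (chr13:23697967-23698513) and 649 bp in GSK, with its summit 138 and 139 bp inside the gene, and ranked at the 98.0 and 99.8 percentile. Its Pol II fold was 10.6 and 13.2 and its H3K4me3 fold 4.16 and 5.80, H3K27ac was found in Veh only (3.46), and H3K4me1 and H3K4me2 had no peak. H4c2 (Hist1h4b) is the H4 gene without H3K4me3 in either treatment. It had only LSD1 (4.81 and 6.71) and a low Pol II peak (2.97 and 2.49, at the 7.39 and 0.721 percentile). A short stretch of chromosome 13 showed the difference between neighbours and was chosen after its values were seen. H4c9 had LSD1 at 5.81 and 8.86, while H2ac11 and H2bc11, whose starts are the next along the chromosome, had no LSD1 peak but Pol II at 3.09 and 3.70.

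**Figure D4:**
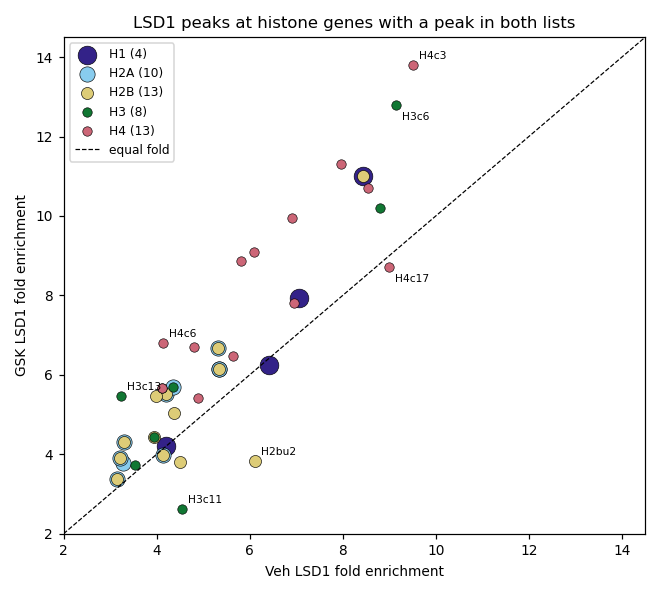
LSD1 fold enrichment in GSK (vertical axis) against Veh (horizontal axis) at the 48 histone genes with an LSD1 peak in both lists, coloured by family. Symbols of different size are used because genes that share a peak coincide, and the dashed line marks equal fold. H4 genes lie above the line except H4c17, H4c3 is the highest point at 9.5 and 13.8, and H2bu2 and H3c11 lie far below the line.

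LSD1 peaks were kept at histone genes under the inhibitor. A fold compared across lists also carries the depth and background of each library, and their part was not tested, so percentiles are given beside it. Of the 49 members with a Veh LSD1 peak, 48 (98.0%) also had a GSK peak, against 87.8% of all genes. H2ac18 had LSD1 in Veh only (3.66), as did 4.44% of all genes, and H2bc7, H2ac7, H3c4 and H3c15 had it in GSK only (3.44, 3.44, 4.03 and 4.01), as did 9.74%. Among the 48, the fold was higher in GSK at 41, with a median log2 ratio of 0.28, against 72.2% of all genes with a peak in both lists and a median of 0.20. The percentile rose at 40 and fell at 8, with a median change of 6.42 points, beside 6.23 over all genes. At 8 of the 48 the Veh and GSK peaks did not overlap each other, and at the other 40 the fold was higher in GSK at 35, with a median log2 ratio of 0.27. Such non-overlap was not counted over all genes, so whether 8 of 48 is unusual is not known. At H4 genes the fold was higher in GSK at 12 of 13, with a median log2 ratio of 0.48, and at the other members at 29 of 35, with 0.21. In percentile the median change was 5.14 points at the H4 genes and 6.42 at the other members. A percentile cannot pass 100, and in Veh the H4 genes were already at a median of 87.2, against 50.3. They had less room to rise, so these changes do not show which group rose more. The largest upward moves in percentile were at H3c13, H4c6 and H2bc18. H3c13 (Hist2h3b) went from a fold of 3.24 to 5.47 and H4c6 (Hist1h4f) from 4.14 to 6.80. The values of H2bc18 (3.98 and 5.47) came from separate peaks, since its GSK peak was the one of H3c13, at chr3:96268631-96269224, while its Veh peak lay at chr3:96269726-96270157. The largest downward moves were at H2bu2 (6.11 to 3.83), H3c11 (4.54 to 2.63) and H2bc14 (4.50 to 3.80).

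Pol II and H3K4me3 presence hardly differed between the treatments at these genes. The 58 members with Pol II were identical in Veh and GSK, whereas 7.33% of all genes had Pol II in Veh only and 2.94% in GSK only. The Pol II fold was higher in GSK at 27 of 58, with a median log2 ratio of -0.03, while over all genes it was higher at 17.6%, with a median of -0.30. In rank within the list this came to a rise of 3.47 percentile points at the median, with 52 members higher and 6 lower, against a median of -0.188 over all genes. The Pol II rank moved most at H2ac11 and H2bc11 (fold 3.09 and 3.70), H2bc3 (3.11 and 3.48), and downward at H2ac10 (3.41 and 2.76), H1f1 (3.23 and 2.70) and H2ac12 with H2bc12 (4.38 and 3.53). All 54 members with H3K4me3 in Veh kept it, and H2ac15, H2bc15, H2ac8 and H2bc8 had it in GSK only (2.53, 2.53, 2.68 and 2.68), beside 1.47% of all genes. The median change in H3K4me3 percentile was 1.9 points (33 higher, 21 lower). It was -0.326 when the lists were cut to equal length, so its direction was not stable. H2ac19, H4c3 and H2ac18 rose most (fold 4.34 to 6.16, 4.16 to 5.80 and 4.59 to 5.46), and H3c3 and H2bc3 (4.78 to 4.45) and H4c17 (7.69 to 7.16) fell most. H4c17 was still the highest member in both treatments, followed by H4c18 (6.14 and 6.59). Both H4c17 peaks lay past the 3′ end of the gene, at chr13:21812370-21814441 in Veh and chr13:21812323-21814373 in GSK.

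H3K4me2 and H3K27ac were found at fewer members in GSK, and both GSK lists were shorter. H3K4me2 was in Veh only at 15 members and in GSK only at 0, beside 12.8% and 1.93% of all genes, and the list went from 15219 peaks in Veh to 9437 in GSK. The members that had it in both were H2bu2, H2aw, H2bc9, H3c7 and H3c6. When the Veh list was shortened to the 9437 peaks of lowest p, 8 members had H3K4me2 in Veh (beside 26.8% of all genes) and 5 in GSK (beside 28.2%). The highest Veh folds were at H4c18 (6.06) and H4c17 (5.70), both without a GSK peak, and at H2aw (3.99 and 4.89). Of the members with H3K4me2 in both, H3c6 (3.90 and 5.39) and H2aw rose most in rank, and H2bu2 (3.96 and 4.02) fell. H3K27ac was in Veh only at 15 members and in GSK only at 0, beside 12.3% and 0.332% of all genes, and the list went from 7410 to 2751 peaks. For both antibodies the study lists fewer read pairs in GSK than in Veh, and the part of depth was not tested. At equal length 26 members had H3K27ac in Veh and 28 in GSK, beside 9.03% and 8.58% of all genes, so at equal length the number in GSK was not lower. Where H3K27ac was present in both, its rank fell at 19 of 28 members, with a median change over the 28 of -4.63 points, beside -6.70 over all genes, and at equal length the median was 4.25. H3K27ac was highest in Veh at H4c17 (5.53, none in GSK), H4c11 (4.89 and 5.63) and H3c6. Its largest falls in rank were at H2bc18 and H3c13 (4.15 and 4.02) and at H2bc6 and H1f4 (3.94 and 4.32), and its largest rises at H4c12 (3.00 and 4.48), H4c18 (4.84 and 7.43) and H2aw (3.42 and 4.46).

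H3K4me1 was the rarest mark in Veh, and its few members changed. It was in both treatments at 5 members, in Veh only at 4 and in GSK only at 8, beside 3.41% and 9.85% of all genes. The list went from 34387 peaks in Veh to 40272 in GSK. For this antibody the study lists more read pairs in GSK than in Veh, and the part of depth was not tested. H4c17 (8.41 and 7.71), H4c18 (4.37 and 4.36) and H2bu2 (4.09 and 3.64) had the highest Veh folds, and H2bc14 (3.23 and 4.63) and H4c11 (3.77 and 5.33) the largest rises in rank. The start was inside the H3K4me1 peak at 1 member in each treatment, and the median distance from start to peak was 343 bp in Veh and 558 bp in GSK.

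The clusters on chromosomes 3, 6 and 11 are small enough to give in full. On chromosome 3, from H2ac21 to H2bc18 (49.8 kb), all 10 genes had H3K4me3 and Pol II in both treatments, 7 had LSD1 in each, and H3K4me2 went from 4 genes to 0. H2ac21, H2ac20 and H2bc21 shared 1 LSD1 peak (5.35 and 6.15) and 1 Pol II peak (6.71 and 7.47), with H3K4me3 at 3.66 and 3.58. The inner block of H3c15 and H2ac19 had Pol II at 10.2 and 10.6 and H2ac18 and H3c14 at 10.3 and 11.9. Each pair shared its peak, with the summit past the 3′ end of the H2A gene and upstream of the H3 start. Of these 4 genes, H2ac19 and H3c14 had no LSD1 peak in either treatment. H4c14 (Hist2h4) had LSD1 at 5.65 and 6.47 and Pol II at 8.08 and 7.47. H3c13 and H2bc18 shared Pol II at 8.53 and 7.88. On chromosome 6 the lone H4f16 (Hist4h4, chr6:136803993-136804431) had LSD1 at 4.89 and 5.42, Pol II at 8.46 and 8.60, H3K27ac at 4.55 and 4.98, and neither H3K4me1 nor H3K4me2. Its mean H3K4me3 fold was the lowest of the H4 genes with a peak, at 2.28 and 2.88. On chromosome 11, H2bu2 (Hist3h2ba) was without H3K27ac and had Pol II at 6.32 and 6.09, and H2aw (Hist3h2a) had Pol II at 9.54 and 6.54 and LSD1 at 3.27 and 3.77. The pseudogene H2bu1-ps lies beside H2aw and shared all its peaks, and also had a GSK H3K4me1 peak (3.76). H2ac14 has no curated transcript and was not scored, and H2af-ps2 had peaks in the GSK lists only, for LSD1 (4.73) and H3K4me1 (4.04).

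Members without H3K4me3 in either treatment numbered 9. Besides H3c11 and H4c2, they were the 7 members with no peak in any of the 12 lists. H1f6 (Hist1h1t), H2bc1 (Hist1h2ba) and H2ac1 (Hist1h2aa) are known as testis histone genes, and 100% of the H1f6 window and 95.8% of the window of the pair was unique sequence. H2bc23, H2ac23, H2ac24 and H4bc24 (Hist1h2br, an H2B gene despite its symbol) lie in windows with 0% unique 100-base words, where a single read of that length has no unique place. H2bc7 and H2ac7 were the only other members without Pol II, with H3K4me3 at 3.26 and 4.08.

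Some members are near-identical copies, whose windows can hold few uniquely mapped reads. The authors kept uniquely mapped reads, so the share of 100-base words in each window that occur once in the genome was computed. The methods give paired reads of 100 or 150 bases by sequencer, so a read may also be placed by its mate, which this share does not count. It was 87.6% at the median member window and 100% at the median of 1262 other promoter windows. H4c17 and H4c18 had the highest Pol II folds of all members (20.6 and 18.5, 20.3 and 18), but only 15.1% and 19.3% of their windows were unique, and H3c15 and H3c14 had 28.3% and 27.3%. The part of this in their folds was not tested. The Pol II summits of H4c17 lay 659 and 661 bp downstream of its start, past its 3′ end. Among the 41 members with at least 80% unique words, chosen after the data were seen, the shares with a peak were 82.9% and 85.4% for LSD1 in Veh and GSK, 92.7% and 92.7% for Pol II, 82.9% and 87.8% for H3K4me3, 65.9% and 46.3% for H3K27ac, 26.8% and 9.76% for H3K4me2, and 12.2% and 22.0% for H3K4me1.

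The sequence between the promoters of a cluster was covered far less than the promoters. Inside the clusters, 323 kb lay more than 1 kb from every curated start, and 105 kb within 1 kb of a histone start. LSD1 peaks covered 23.9% of the promoter sequence in Veh and 26.6% in GSK, but 0.397% and 0.153% of the sequence between, beside 0.22% and 0.176% of the genome outside promoters. Pol II covered 48.2% and 48.5% of promoter sequence and 1.31% and 1.04% between, and H3K4me3 39.9% and 45.1% against 1.86% and 1.85%. H3K27ac covered 26.0% and 11% against 1.28% and 0.306%, and H3K4me2 11.2% and 3.33% against 0.966% and 0.458%. For these antibodies the genome outside promoters was covered less than the sequence between. The genome shares were 0.0889% and 0.0978% for Pol II and 0.17% and 0.186% for H3K4me3. They were 0.0842% and 0.0199% for H3K27ac and 0.176% and 0.0735% for H3K4me2. H3K4me1 differed least between the parts, with 5.27% and 6.22% of promoter sequence and 2.82% and 4.49% between, against 1.09% and 1.30% of the genome outside promoters. No H3K4me3 peak lay wholly between promoters, so its coverage there came from peaks that reach out of a promoter window. The peaks wholly between numbered 3 and 1 for LSD1, 10 and 15 for H3K4me1, 3 and 2 for H3K4me2, 1 and 0 for H3K27ac and 2 and 0 for Pol II. The LSD1 peak between the starts of H2bc4 and H1f6, inside the annotated span of H2bc4, at chr13:23691910-23692238 in Veh (fold 6.35) and chr13:23691837-23692235 in GSK (5.76), was the only one of these LSD1 peaks found in both lists. H3K4me1 peaks lay over or beside it, at chr13:23691321-23691892 in Veh (2.93) and chr13:23691519-23693065 in GSK (2.83). The highest H3K4me1 fold between promoters was at chr13:21796806-21797108 in Veh (5.79) and chr13:21796776-21797118 in GSK (6.16), between the starts of H2bc22 and H2bc23 and inside the annotated span of H2bc22.

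**Figure D5:**
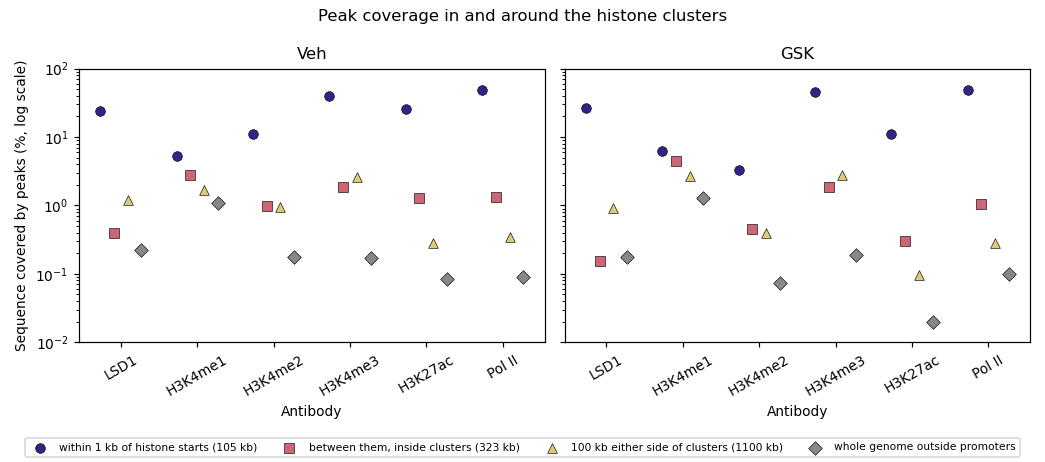
Percentage of sequence covered by peaks (log scale) for each antibody in Veh (left) and GSK (right), for sequence within 1 kb of a histone start (105 kb), between these windows inside clusters (323 kb), within 100 kb on either side of the clusters (1100 kb) and in the whole genome outside promoters. Promoter sequence is the highest in every list, and H3K4me1 shows the smallest gap, with 5.27% and 2.82% in Veh.

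Other histone genes and genes that serve histone synthesis were scanned in the same way. Of 11 replication-independent histone genes (such as H3f3a, H3f3b, H2az1 and H2ax), all 11 had H3K4me3 in both treatments, at a median percentile of 40.2 in Veh and 30.9 in GSK and a median −log10 p of 82.1 and 95.7. LSD1 was at 8 and 10 of these, H3K4me1 at 5 and 5, H3K4me2 at 6 and 3, H3K27ac at 6 and 6, and Pol II at 6 and 6. Of 26 genes of the histone locus body, histone mRNA processing, S phase entry and histone chaperoning, H3K4me3 was at 26 and 26, LSD1 at 18 and 24, H3K4me1 at 7 and 12, H3K4me2 at 16 and 12, H3K27ac at 16 and 8 and Pol II at 18 and 17. Over all genes the shares in Veh and GSK were 50.0% and 51.1% for H3K4me3, 36.3% and 41.6% for LSD1 and 30.3% and 36.8% for H3K4me1. They were 39.0% and 28.2% for H3K4me2, 20.5% and 8.58% for H3K27ac and 29.3% and 24.9% for Pol II. Some counts lay near these shares, such as H3K4me1 at 7 of 26 in Veh and H3K4me2 at 3 of 11 in GSK. Npat, the coactivator of histone transcription, had H3K4me3 at 4.76 and 4.88, LSD1 at 3.88 and 4.51, Pol II at 5.02 and 3.92 and H3K27ac in Veh only (3.90). Slbp, which binds the stem-loop, had H3K4me3 at 4.96 and 5.11, LSD1 at 4.24 and 5.33, Pol II at 11.3 and 9.10 and H3K27ac at 4.68 and 5.31. These 2 genes and the 4 named above were picked as examples after their values were seen.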

How the data were processed

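Each of the 12 ChIP libraries, and no input library, carried a deposited peak list. Per the study's methods, the authors aligned reads with Bowtie2 (v2.3.5.1) to mm10 and kept unique alignments, removed duplicates with Samtools (v1.9) and called peaks with MACS2 (v2.1.2) at a p cutoff of 0.001, with input as control per the reporting summary. Random picking of equal read numbers is described for signal comparison, and whether it preceded the peak calls is not given in the sources used here. Deposited values per peak were fold enrichment (a ratio), −log10 p, −log10 q and a score that the authors' caller derived from these, with narrow peaks and a summit for LSD1 and Pol II and broad peaks for the histone marks. LSD1 and Pol II lists begin at a −log10 p of 3, the histone lists at a −log10 q just above 3.

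Starts of curated RefSeq transcripts (GRCm38.p6) gave 31603 TSSs of 26180 genes. A gene had a peak where 1 bp or more lay within 1 kb of a TSS, and took its highest fold. Percentiles rank a fold within its own list. Genes were named by a rule (all members of the chromosome 3, 6 and 11 clusters, extremes of H3K4me3, members without H3K4me3, the 3 highest Veh folds and the 3 largest rank changes per antibody, and members changing presence where 6 or fewer did so). Members and lists were chosen with earlier results of these data known. Shares carry Wilson 95% intervals, counting error only. Python 3.11.15, pandas 2.3.3, numpy 2.4.6 and scipy 1.17.1 were used, and the overlap code was tested on simulated data. Alternatives were the window, overlap, q threshold, list length, annotation, cluster distance and ranking value. The 4 input samples were not analysed here.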

Additional observations from a re-analysis of the deposited data

How the results depend on the processing

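Of 156 alternative values for the 30 results, 132 stayed within 1.5 times the count or within the counting interval, 22 moved beyond it and 2 moved beyond it and changed sign. Peaks of H3K4me1 were fewer or more with the window, at 29 members in Veh and 43 in GSK within 2.5 kb, and 4 in GSK within 500 bp. With a −log10 q of at least 5, members with H3K4me1 in Veh numbered 4, with H3K4me2 8 in Veh and 2 in GSK, and with H3K27ac 15 in GSK. With lists of equal length they numbered 8 for Veh H3K4me2 and 26 for Veh H3K27ac. For the share between promoters, the q threshold gave 0.158% for Veh LSD1, 2.00% and 2.68% for H3K4me1 in Veh and GSK, 0.388% for Veh H3K4me2 and 0.0978% for GSK H3K27ac, and equal length gave 0.388% for Veh H3K4me2 and 0.387% for Veh H3K27ac. Joining members within 200 kb gave 3.44% for GSK H3K4me1 and 1.25% for H3K4me3 in both treatments. The median percentile change was 4.70 for H3K4me3, -24.4 for H3K27ac and 0.361 for Pol II when peaks were ranked by −log10 p, and -0.326 for H3K4me3 and 4.25 for H3K27ac at equal length. That of H3K4me2, over 5 members, was 0.687 and turned to -10.7 when ranked by −log10 p and to -5.3 over members with a peak in either treatment, within the interval of the 5. In all, 4 of 24 such medians changed sign. Leaving out histone promoter windows only gave 0.274% between promoters for GSK LSD1, against 0.153%, within the counting interval. The cause of these moves was not tested. The share of members with Veh LSD1 was 82.9% among those with at least 80% unique sequence, an alternative added after the data were seen. The counts of members with LSD1, H3K4me3 and Pol II stayed within 1.5 times the reported count under all 6 alternatives. No paired analysis was possible because each antibody and treatment has 1 library, and only the input samples, which carry no peak list, have more than 1. The lists hold no read numbers, so the part of depth in these values was not tested.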

Other observations

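The sequence within 100 kb of the clusters held 63 tRNA genes, and that between histone promoters held 0. Of the peaks wholly inside these flanks and outside promoters, 23 of 30 Veh LSD1 peaks and 13 of 20 GSK LSD1 peaks lay within 1 kb of a tRNA gene, as did 21 of 28 Veh and 22 of 29 GSK H3K4me3 peaks. For H3K4me1 these were 3 of 19 and 6 of 29, for H3K4me2 8 of 14 and 4 of 8, for H3K27ac 3 of 6 and 1 of 2, and for Pol II 3 of 9 and 3 of 9. LSD1 peaks covered 1.21% of the flanks in Veh and 0.919% in GSK, more than the 0.397% and 0.153% between histone promoters. The tRNA genes were chosen for this count after the flank peaks had been seen. Neither the share of flank sequence within 1 kb of a tRNA gene nor the share of such peaks elsewhere was counted. Whether these numbers are unusual is therefore not known.

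The promoters of the members had a median GC content of 45.3% and a median ratio of observed to expected CpG of 0.748, against 52.7% and 0.384 over all 32851 promoters.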
